A study of Drosophila melanogaster with 16 samples.

Results

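The 10 genes described here make, store and release fat in Drosophila melanogaster, and they were chosen by gene symbol for these functions. They are FASN1, FASN2, ACC, ATPCL, Desat1, mdy, Lsd-1, Lsd-2, bmm and mag. All 10 matched a gene, out of 13619 protein-coding genes and 17039 genes of any kind, and all 10 passed the filter on low counts in both tests below. RNA was sequenced from pooled pieces of foregut tissue of adult mated Canton-S females, all of them reared axenically, that is without microbes. There were 5 libraries of proventriculus (PV) from flies kept axenic, named PV axenic, and 5 libraries of PV from flies given LpWF as adults, named PV LpWF. LpWF is a strain of Lactiplantibacillus plantarum, a bacterium of the fly gut. There were also 3 libraries of crop and 3 of salivary gland (SG), both from flies given LpWF. The PV was dissected with as little crop duct as possible, and the crop with its ducts.

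Flies build fatty acids in the cytosol from citrate, which ATP citrate lyase (ATPCL) cleaves to acetyl-CoA, and acetyl-CoA carboxylase (ACC) then converts acetyl-CoA to the malonyl-CoA that fatty acid synthase (FASN1, FASN2) joins into a saturated chain. Desat1 is a delta-9 desaturase that puts a double bond into such chains, and midway (mdy), a diacylglycerol acyltransferase, adds the last chain of a triglyceride. The triglyceride is kept in lipid droplets coated by the perilipins Lsd-1 and Lsd-2, and is released by lipases such as brummer (bmm), which acts at the droplet, while magro (mag) is known as a lipase secreted into the gut lumen. The fat body and the oenocytes are the tissues best known for this chemistry in the adult fly, and the crop is the sac in which ingested food is held before it passes through the PV into the midgut.

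Reads on genes numbered from 18186391 to 45500807 per library. Ribosomal RNA took 6.14 to 10.6% of these reads in the crop, 15.3 to 43.4% in PVs and 0.843 to 1.01% in SGs. It took over 25% in replicates 4 and 5 of both PV groups. Levels are given as coding TPM, the deposited TPM values (transcript abundance corrected for length) summed per gene and rescaled so that the protein-coding genes of each library share the same total. The 10 most abundant protein-coding genes held 12.2 to 15.5% of that total in the crop, 38.2 to 50.9% in PVs and 87.7 to 89.2% in SGs, so the same gene product has less room in a PV or an SG library than in a crop library. The median gene stood 1.98-fold higher in crop than in PV LpWF on this scale, and 1.28-fold higher with the 10 highest genes of each group left out. The tests used counts normalized by TMM (trimmed mean of M-values), on which the median difference of all genes tested was 0.0105 on the log2 scale. Each gene is thus given on both scales, and a difference in coding TPM is best read against that 1.98-fold shift. The SG libraries were made from RNA extracted and selected differently (poly(A) selection in place of depletion of ribosomal RNA), so tissue and preparation cannot be told apart there, and SG levels were not tested.

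The tissue labels were compared with the marker genes listed for each tissue. In the crop, 11 of 11 muscle genes were higher than in PV LpWF, with a summed level of 16900 to 19200 coding TPM against 1270 to 1590. Of 7 genes listed as markers of the PV epithelium 5 were lower in crop and 2, bond and vir-1, were higher. Their means were 2530 and 4295 coding TPM in crop against 201 and 626 in PV LpWF. In the paper, however, bond marks the esophagus and crop duct, and vir-1 is strongly expressed in esophageal cells. Muc68D and Pgant4, both lower in crop, had means of 14230 and 976 coding TPM in PV LpWF against 1879 and 88.1 in crop. The crop libraries were uneven, at 1630, 3440 and 574 for Muc68D and 81.3, 161 and 21.7 for Pgant4. Markers shared by midgut enterocytes and the posterior PV summed to 911, 6444 and 8879 in crop replicates 1 to 3. In PV LpWF they summed to 17100 to 65100. The part of PV or midgut tissue in the crop values was not tested. LysP, a lysozyme gene of the salivary gland, had a mean of 6156 coding TPM in SG and 3.08 in crop, and Est-6 and CAH1 were also highest in SG, but Jhbp14, the last of the 4 salivary gland markers, had a mean of 6.62 in SG and 1266 in crop. The 4 ovary markers summed to at most 0.324 coding TPM in any library.

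Fat synthesis was the most abundant of the functions covered, and it was led by the desaturase. In the crop the order by mean coding TPM was Desat1, FASN1, ATPCL, ACC, Lsd-1, Lsd-2, bmm, mdy, mag and FASN2, and the libraries of neighbouring genes overlapped only for ATPCL with ACC and for mag with FASN2. In both PV groups ATPCL stood above FASN1 instead of below it, and Lsd-1 and Lsd-2 overlapped, as did bmm and mdy, and FASN2 and mag. In PV LpWF the libraries of ATPCL also overlapped with those of Desat1 and of FASN1. Those of mdy overlapped there with those of mag, through replicate 4 alone, where mag stood at 35.7 coding TPM. In SGs the order was Desat1, Lsd-2, bmm, ATPCL, ACC, FASN1, Lsd-1, mdy, FASN2 and mag, with overlap only for bmm with ATPCL and for ACC with FASN1. In crop and PV, FASN1 was by far the main fatty acid synthase gene, with 1960 to 3180 times the coding TPM of FASN2 in crop libraries and 356 to 1240 times in PV LpWF libraries.

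**Figure D1:**
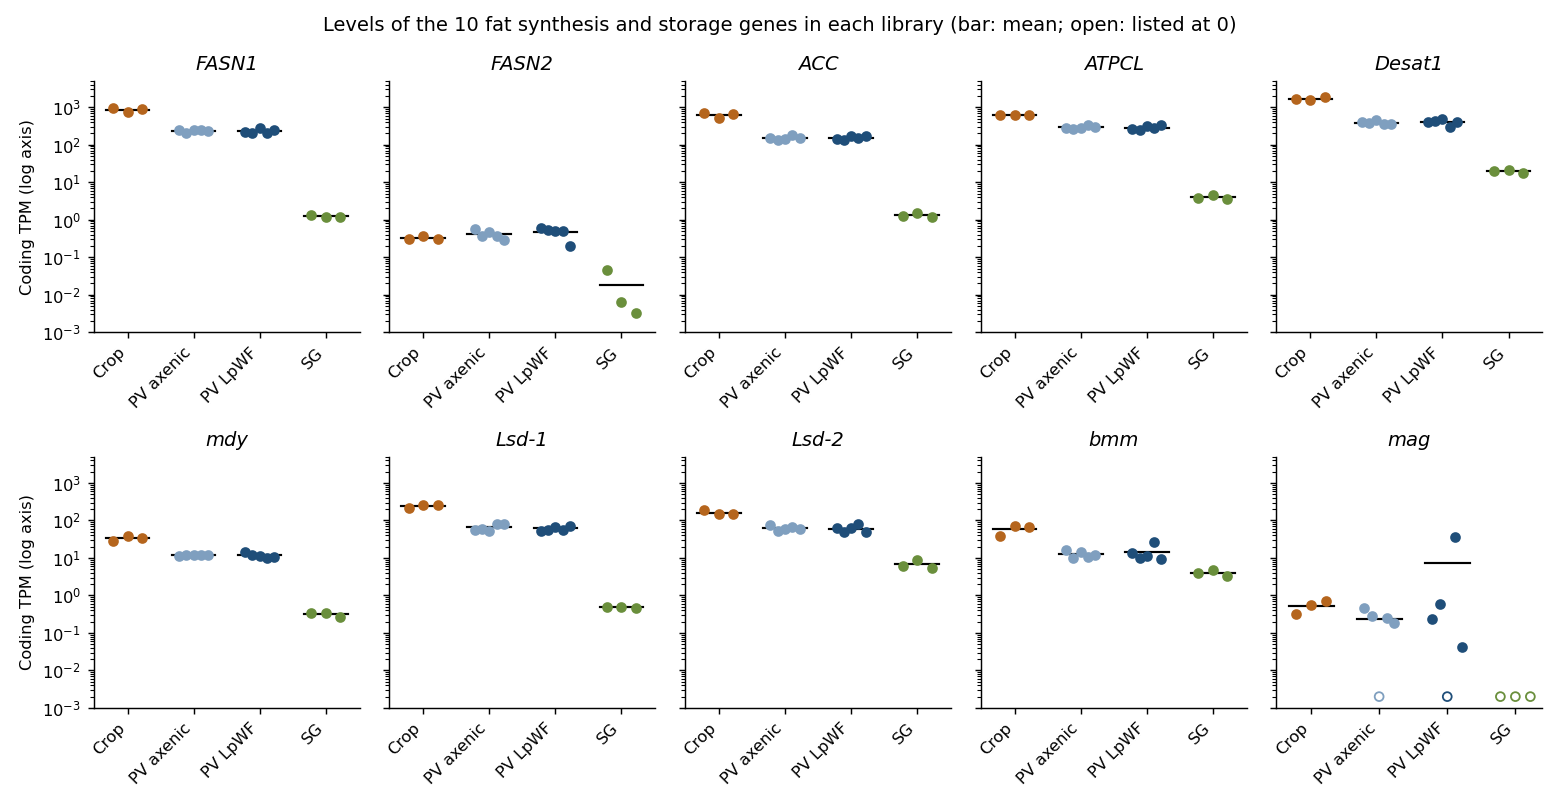
Coding TPM (log axis) of each of the 10 genes in every library, grouped as Crop (3), PV axenic (5), PV LpWF (5) and SG (3), with bars at the group means and open points for libraries listed at 0. For FASN1, ACC, ATPCL, Desat1, mdy, Lsd-1, Lsd-2 and bmm the crop libraries lie above all PV libraries and the SG libraries below them. On this scale the median gene stood 1.98-fold higher in crop than in PV LpWF, and in SG at 0.0542 times its crop level. The share of all genes separated in this way was not counted. For mag PV LpWF replicate 4 stands alone at 35.7.

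The first comparison asked how the crop differed from the PV in flies given the same bacterium. On the TMM scale 5 of the 10 genes rose in crop and 1 fell, at a Benjamini-Hochberg adjusted p under 0.05 over all 9713 genes tested, by the quasi-likelihood test of edgeR. Among all genes 26.1% passed upwards and 25.5% downwards, 51.6% in all, so that 6 of 10 is close to the share of genes at large. The genes that rose were FASN1, ACC, Desat1, mdy and Lsd-1, and the gene that fell was FASN2. The median log2 difference of the 10 genes was 0.71. Nothing states that the libraries came from separate cultures, and the p-values then measure only the spread between these libraries. In bulk tissue, fewer cells of a type and less RNA per cell cannot be told apart.

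FASN1 (FBgn0283427) encodes the fatty acid synthase of general use and lies on chromosome arm 2L from 3056598 to 3068177 (BDGP6, as are all positions below). It stood at 946, 736 and 903 coding TPM in the crop libraries, and at 216, 212, 279, 203 and 248 in PV LpWF replicates 1 to 5. The groups did not overlap, and the means were 862 ± 111 (SD, n = 3) and 232 ± 31.4 (SD, n = 5). It ranked from 176 to 219 among protein-coding genes in crop and from 289 to 405 in PV LpWF. On the TMM scale the difference was 0.91 ± 0.14 (log2, SE), which is 1.87-fold, with an adjusted p of 0.000413 in edgeR. The coding TPM ratio was 3.72.

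ACC (FBgn0033246, 2R from 7974115 to 7991862) encodes the enzyme that commits acetyl-CoA to fatty acid synthesis. Its crop libraries held 691, 516 and 648 coding TPM, and PV LpWF libraries 146, 133, 173, 150 and 169. No PV library came near the lowest crop library. ACC overlaps Nup44A on the opposite strand over 2822 bases. The TMM difference was 1.01 ± 0.14 (log2, SE; edgeR adjusted p = 0.000245), and the coding TPM ratio was 4.01. Within a library FASN1 and ACC kept a narrow ratio, 1.37 to 1.43 in crop and 1.36 to 1.61 in PV LpWF, with the groups overlapping.

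ATPCL (FBgn0020236, 2R from 15993531 to 16001290), one step upstream, behaved differently. It overlaps CG8320 and Tmem131 on the opposite strand over 177 and 110 bases. Its levels were 611, 625 and 634 coding TPM in crop and 271, 253, 318, 272 and 326 in PV LpWF. These groups do not overlap either, but their ratio of 2.16 is little above the 1.98-fold shift of the median gene. On the TMM scale the difference was 0.12 ± 0.13 (log2, SE), an interval of -0.14 to 0.39 at 2 SE to each side, with an edgeR adjusted p of 0.473. The ratio of FASN1 to ATPCL within a library does not depend on the scaling, and it was 1.18 to 1.55 in crop and 0.749 to 0.877 in PV LpWF.

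Desat1 (FBgn0086687, 3R from 12439600 to 12447616) was the most abundant of the 10 genes in each group by its mean. The crop libraries held 1689, 1600 and 1823 coding TPM, at ranks from 117 to 123. The PV LpWF libraries held 406, 439, 499, 304 and 404, at ranks from 184 to 282, and replicate 4 was the lowest of them. The TMM difference was 1.08 ± 0.13 (log2, SE), or 2.11-fold, with an edgeR adjusted p of 9.8e-05.

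FASN2 (FBgn0042627) is the neighbour of FASN1, from 3043947 to 3056143 on the same strand of 2L, and was near the limit of detection. Crop libraries held 41, 36 and 36 estimated reads, and PV LpWF libraries 139, 143, 145, 92 and 28. As TMM-normalized CPM, reads scaled to a common library size, this was 1.21, 1.49 and 1.15 in crop and 4.72, 3.97, 3.66, 3.97 and 1.72 in PV LpWF. On that scale the groups did not overlap and FASN2 fell by 1.50 ± 0.33 (log2, SE; edgeR adjusted p = 0.00431). In coding TPM they did overlap, at 0.297 to 0.375 against 0.200 to 0.608. Genes of 2 small nuclear RNAs, snRNA:LU and snRNA:U5:23D, lie on the same strand within FASN2, and their part in its reads was not tested.

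mdy (FBgn0004797, 2L from 16816660 to 16826964) stood at 28.5, 37.3 and 34.9 coding TPM in crop and at 14.8, 12.3, 11.4, 10.2 and 10.4 in PV LpWF. All crop libraries were above all PV libraries. The TMM difference was smaller than for FASN1, at 0.52 ± 0.14 (log2, SE; edgeR adjusted p = 0.0101). On the opposite strand mdy overlaps Cse1 over 4052 bases and CG13280 over 4434 bases. The library kit keeps strand, but the strand setting used in counting is not given in the sources used here, which bears equally on ACC, ATPCL, Lsd-1 and mag. Its part in their values was not tested.

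Among the perilipins Lsd-1 was called and Lsd-2 was not, but their differences were not compared by a test. The ratio of Lsd-1 to Lsd-2 within a library overlapped between crop, at 1.15 to 1.77, and PV LpWF, at 0.700 to 1.52. Lsd-1 (FBgn0039114, 3R from 23763857 to 23766662) held 219, 260 and 256 coding TPM in crop and 53.8, 56.6, 65.7, 57.2 and 72.6 in PV LpWF, with no overlap. Lsd-1 overlaps CG10214 on the opposite strand over 144 bases. It rose by 1.00 ± 0.14 (log2, SE; edgeR adjusted p = 0.000333). Lsd-2 (FBgn0030608, X from 15069127 to 15076220) held 190, 147 and 151 coding TPM in crop and 61.9, 49.7, 61.9, 81.7 and 47.9 in PV LpWF. Its groups did not overlap in coding TPM, but in TMM CPM PV LpWF replicate 4, at 162, was above crop replicates 2 and 3, at 152 and 150. The difference of 0.45 ± 0.17 (log2, SE) had an edgeR adjusted p of 0.0501. Without PV LpWF replicate 4 it was 0.59 with an adjusted p of 0.00274.

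The lipase bmm (FBgn0036449, 3L from 14776496 to 14786412), the fly relative of mammalian adipose triglyceride lipase, was uneven in both tissues. Crop replicate 1 held 39.0 coding TPM, and replicates 2 and 3 held 70.6 and 65.6. PV LpWF replicate 4 held 26.2, and the other PV LpWF libraries held 13.9, 9.97, 11.0 and 9.35. The TMM difference of 1.07 ± 0.39 (log2, SE) was as large as that of Desat1, with an edgeR adjusted p of 0.0530. Without PV LpWF replicate 4 it was 1.42 with an adjusted p of 0.00142, and without crop replicate 1 it was 1.30 with an adjusted p of 0.0410.

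mag (FBgn0036996, 3L from 20460683 to 20462274) was barely present outside of 1 library. It had 7, 9 and 14 estimated reads in the crop libraries, and 9, 25, 0, 1060 and 1 in PV LpWF replicates 1 to 5. The fitted difference of -4.76 ± 2.81 (log2, SE; edgeR adjusted p = 0.201) rested on replicate 4, since it was 0.29 without that library. Along its whole length of 1592 bases mag overlaps atk, which is coded on the opposite strand.

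Both lipases were thus highest, among PV libraries, in PV LpWF replicate 4, and that library stood apart in digestive enzyme genes. Of 12 markers shared by midgut enterocytes and the posterior PV, 9 were highest there of the 10 PV libraries. The share of all genes that were highest there was not counted. Amy-p, Amy-d and Phae2 were not, at 8810, 7590 and 355 coding TPM, each below PV LpWF replicates 1 to 3. The paper reports genes of this list, among them Amy-p, Phae2 and epsilonTry, in cells of the posterior PV. The list thus does not separate posterior PV from midgut. The 12 markers summed to 65140 coding TPM, against 17150 to 45690 in the other PV LpWF libraries. The trypsin gene epsilonTry stood at 1870 coding TPM there and at 168, 252, 200 and 23.6 in PV LpWF replicates 1, 2, 3 and 5. The lipase gene CG8562 stood at 108 there and at 0.402, 0.0694, 0.0213 and 0.128 in the others. Fat body markers were lowest there, at a sum of 1091 against 1360 to 2669. The part of midgut or posterior PV tissue in the mag and bmm values was not tested. With that library left out 8 of the 10 genes were called in crop against PV LpWF, 7 of them higher, and so were 8 when only libraries with at most 25% of reads on ribosomal RNA were used. Of all genes tested 52.1% and 51.3% were called in these settings.

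**Figure D2:**
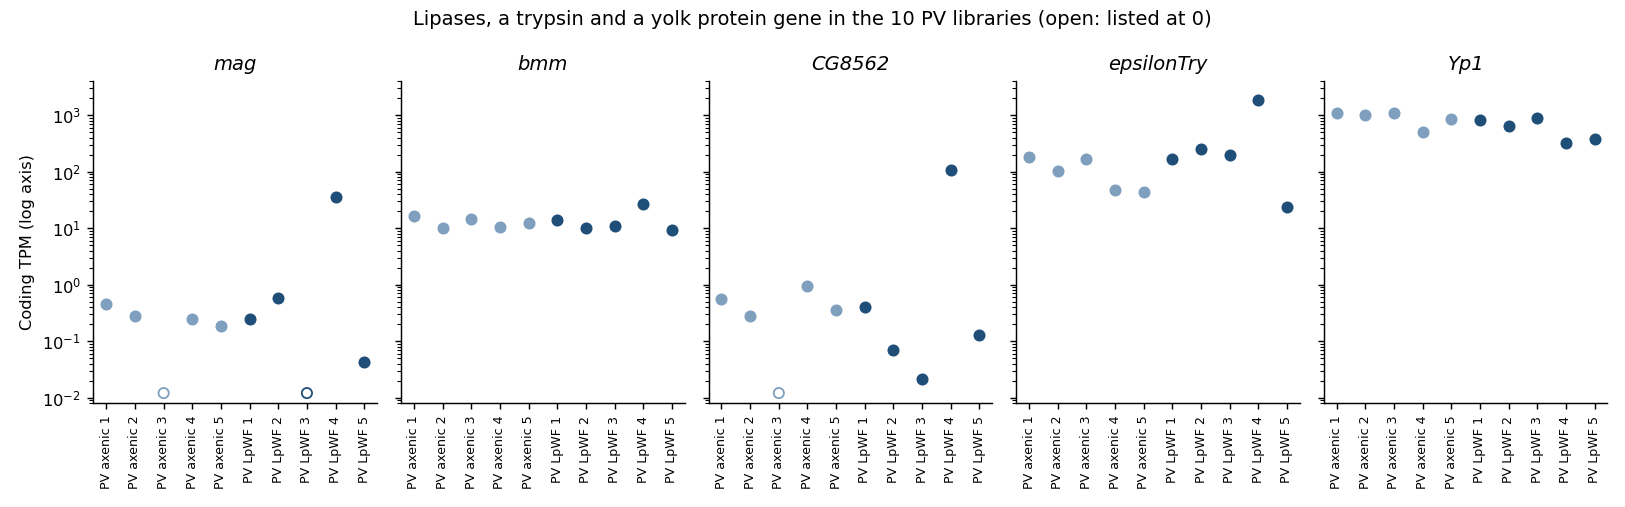
Coding TPM (log axis) of mag, bmm, the lipase gene CG8562, the trypsin gene epsilonTry and the yolk protein gene Yp1 in the 5 PV axenic (light) and 5 PV LpWF (dark) libraries, with open points for libraries listed at 0. PV LpWF replicate 4 is the highest for the first 4 genes, with 35.7 for mag and 26.2 for bmm, and the lowest for Yp1, with 319.

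Fat body and oenocyte tissue was sought through its markers, because both carry the pathway. Of 12 fat body markers 9 were tested, 1 was higher in crop, 2 were lower and 6 did not pass. Their summed level was 2100 to 2880 coding TPM in crop and 1090 to 2670 in PV LpWF, and Lsp2, Lsp1beta and Fbp1 had means below 1 in every group. The yolk protein gene Yp1 made up much of the sum, with 851 to 1160 in crop and 319 to 902 in PV LpWF. Of 6 oenocyte markers, FASN3, eloF, Fad2 and Desat2 had means below 1 in every group, and the list summed to 1.62 to 3.86 in crop and 0.369 to 1.00 in PV LpWF. The 5 hemocyte markers summed to 311 to 322 in crop against 55.3 to 76.0 in PV LpWF. Nearly all of this was the scavenger receptor gene crq, at 296 to 312 in crop and 51.9 to 69.9 in PV LpWF. Of 4 hemocyte markers tested, only crq was higher in crop, and 3 did not pass. The means of NimC1 and He stayed below 1. How far muscle, fat body or hemocyte content bears on the 10 genes was not tested.

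**Figure D3:**
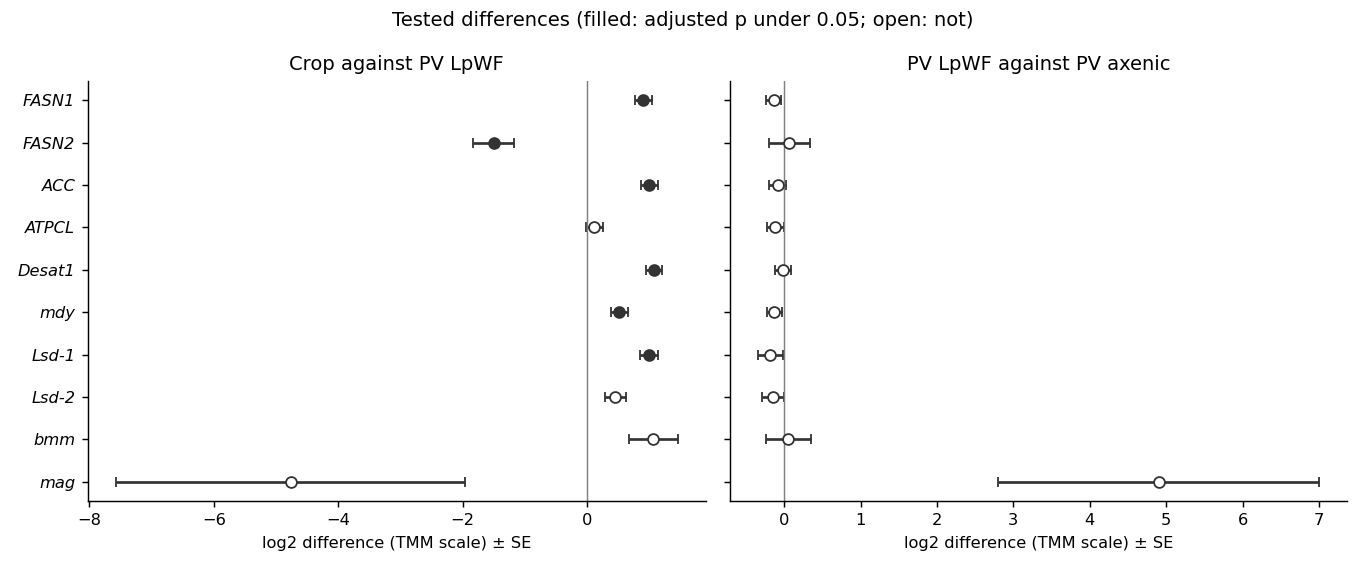
Fitted log2 differences on the TMM scale with standard errors for the 10 genes, in Crop against PV LpWF (left) and PV LpWF against PV axenic (right), with filled points where the adjusted p was under 0.05. In crop FASN1, ACC, Desat1, mdy and Lsd-1 are filled above 0 and FASN2 is filled at -1.50, and on the right all 10 points are open.

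The second comparison asked whether LpWF changed these genes in the PV. None of the 10 was called by edgeR. Over all 9360 genes tested 0.0107% were called, which is 1 gene, CG31705, named here after its value was seen. At an unadjusted p under 0.05 there were 908 genes, and mag was the only one of the 10 among them. DESeq2 called 52 genes over all, and again none of the 10.

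For 9 of the 10 genes the fitted difference was small, with intervals that were wider for bmm and FASN2 than for the others. FASN1 held 248, 208, 242, 254 and 231 coding TPM in PV axenic replicates 1 to 5, within the spread of PV LpWF. Its TMM difference was -0.14 ± 0.10 (log2, SE; edgeR adjusted p = 0.687), or -0.34 to 0.060 at 2 SE to each side. Of those 9 genes, Lsd-1 had the lowest value, -0.18 ± 0.17, and FASN2 the highest, 0.065 ± 0.26 (log2, SE), and their edgeR adjusted p-values lay from 0.687 to 0.973. The widest of their intervals was that of bmm, -0.53 to 0.63 at 2 SE to each side. The median gene stood 1.09-fold higher in PV LpWF than in PV axenic in coding TPM, and on that scale the ratios of the same 9 genes ran from 0.941 for Lsd-1 to 1.14 for FASN2, with overlap of the groups for each.

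mag was the exception in size. PV axenic libraries held 0.455, 0.278, 0, 0.246 and 0.187 coding TPM, and PV LpWF libraries 0.242, 0.581, 0, 35.7 and 0.0430. PV LpWF replicate 4 alone lay above 1 coding TPM, and the other libraries of the 2 groups overlapped. The fitted difference was 4.90 ± 2.11 (log2, SE; edgeR adjusted p = 0.510), and -0.20 without that library. In the libraries with 0 reads, PV axenic replicate 3 and PV LpWF replicate 3, a count of 0 allows up to 3 reads, which is 0.0792 and 0.0659 CPM.

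In coding TPM SGs stood far below the other tissues for most of the 10 genes. FASN1 held 1.34, 1.16 and 1.19 coding TPM, ACC 1.27, 1.50 and 1.16, and Lsd-1 0.488, 0.504 and 0.459. The crop to SG ratios were 699 for FASN1, 471 for ACC and 506 for Lsd-1, where the median gene of the SG stood at 0.0542 times its crop level. The ratio depends heavily on how the library is scaled. With the 10 highest genes of each group left out (28 genes in all) it was 85.6 for FASN1, and in CPM normalized by TMM over all 16 libraries it was 38.4. Reads were few but not at the limit, with 1215 to 1309 on FASN1 and 76 to 94 on Lsd-1 per SG library.

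Of the 6 members with a mean of at least 1 coding TPM in SG, Lsd-2 and bmm were the least reduced against crop. Lsd-2 held 6.14, 8.57 and 5.47 coding TPM there, and bmm 4.05, 4.87 and 3.28. The crop to SG ratio of Lsd-2 was 24.2 in coding TPM and 1.37 in TMM CPM, and that of bmm was 14.4 in coding TPM but 0.803 in TMM CPM, so that the direction for bmm turned with the scaling. FASN2, with 39, 6 and 3 reads in SG, had ratios of 17.8 and 0.984 on these scales. Within a library the ratio of Lsd-1 to Lsd-2 needs no scaling between libraries. It was 0.0588 to 0.0839 in SG, 0.700 to 1.52 in PV LpWF, 0.754 to 1.42 in PV axenic and 1.15 to 1.77 in crop. The ratio of Desat1 to FASN1 ran the other way, at 15.1 to 17.7 in SG and 1.79 to 2.17 in crop. Desat1 itself held 20.3, 20.7 and 17.9 coding TPM in SG, at ranks from 526 to 597. mag had no read in any of the 3 SG libraries, where a count of 0 allows at most 0.0999 CPM.

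Several of these genes have transcripts that differ in their first exon, and the shares of these differed between tissues. The shares are estimates by Salmon among transcripts that overlap for most of their length, and they are described without a test. ACC-RE, which starts at 7984063, the most downstream start of the gene, held 84.5 to 88.7% of ACC in crop, 67.1 to 75.4% in PV LpWF, 71.7 to 78.0% in PV axenic and 48.4 to 63.1% in SG. ACC-RF, which starts at 7989714, held 4.63 to 7.05% in crop, 13.6 to 18.6% in PV LpWF, 13.4 to 15.3% in PV axenic and 25.7 to 37.7% in SG. For both transcripts the 3 tissues did not overlap, and the PV groups did. ATPCL, which has 2 annotated starts, showed less contrast. ATPCL-RD held 34.1 to 38.3% in crop, 27.2 to 33.6% in PV LpWF, 29.1 to 33.8% in PV axenic and 38.6 to 50.3% in SG. Here too the 3 tissues did not overlap.

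Desat1 showed the same kind of pattern over 5 starts. Desat1-RC, from 12441427, held 87.4 to 90.5% in crop, 77.8 to 84.2% in PV LpWF, 83.2 to 85.4% in PV axenic and 65.2 to 67.3% in SG. Desat1-RD, from 12444041, held 3.00 to 4.58% in crop, 8.97 to 13.8% in PV LpWF, 6.76 to 11.5% in PV axenic and 17.4 to 20.1% in SG. Desat1-RA, from the most upstream start at 12439600, held 13.4 to 15.1% in SG against at most 6.89% in any crop or PV library. The gene was thus carried mainly by the same transcript in all 3 tissues, and the part from other starts was smallest in crop and largest in SG. Between the PV groups this part did not follow the level. PV LpWF had the higher mean level, 410 against 384 coding TPM in PV axenic. Its mean share of Desat1-RC was the lower, 81.0% against 84.7%.

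Of the perilipins, Lsd-2 differed by splicing and not by its start, since all 5 transcripts begin at 15076220. Lsd-2-RA held 46.6 to 48.3% in crop, 19.2 to 30.9% in PV LpWF and 27.0 to 42.4% in PV axenic, and Lsd-2-RB held 38.5 to 42.9%, 55.8 to 67.3% and 48.5 to 63.2%. RA thus led in all 3 crop libraries and RB in all 10 PV libraries. In SG RA held 31.8 to 43.0% and RB 43.0 to 56.3%, and the shares were about equal in replicate 2. Lsd-1-RB held 74.5 to 87.7% in crop and PV, while Lsd-1-RC held 33.9 to 72.8% in SG, where few reads carry the estimate. bmm-RB held 85.9% or more of bmm in every library.

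**Figure D4:**
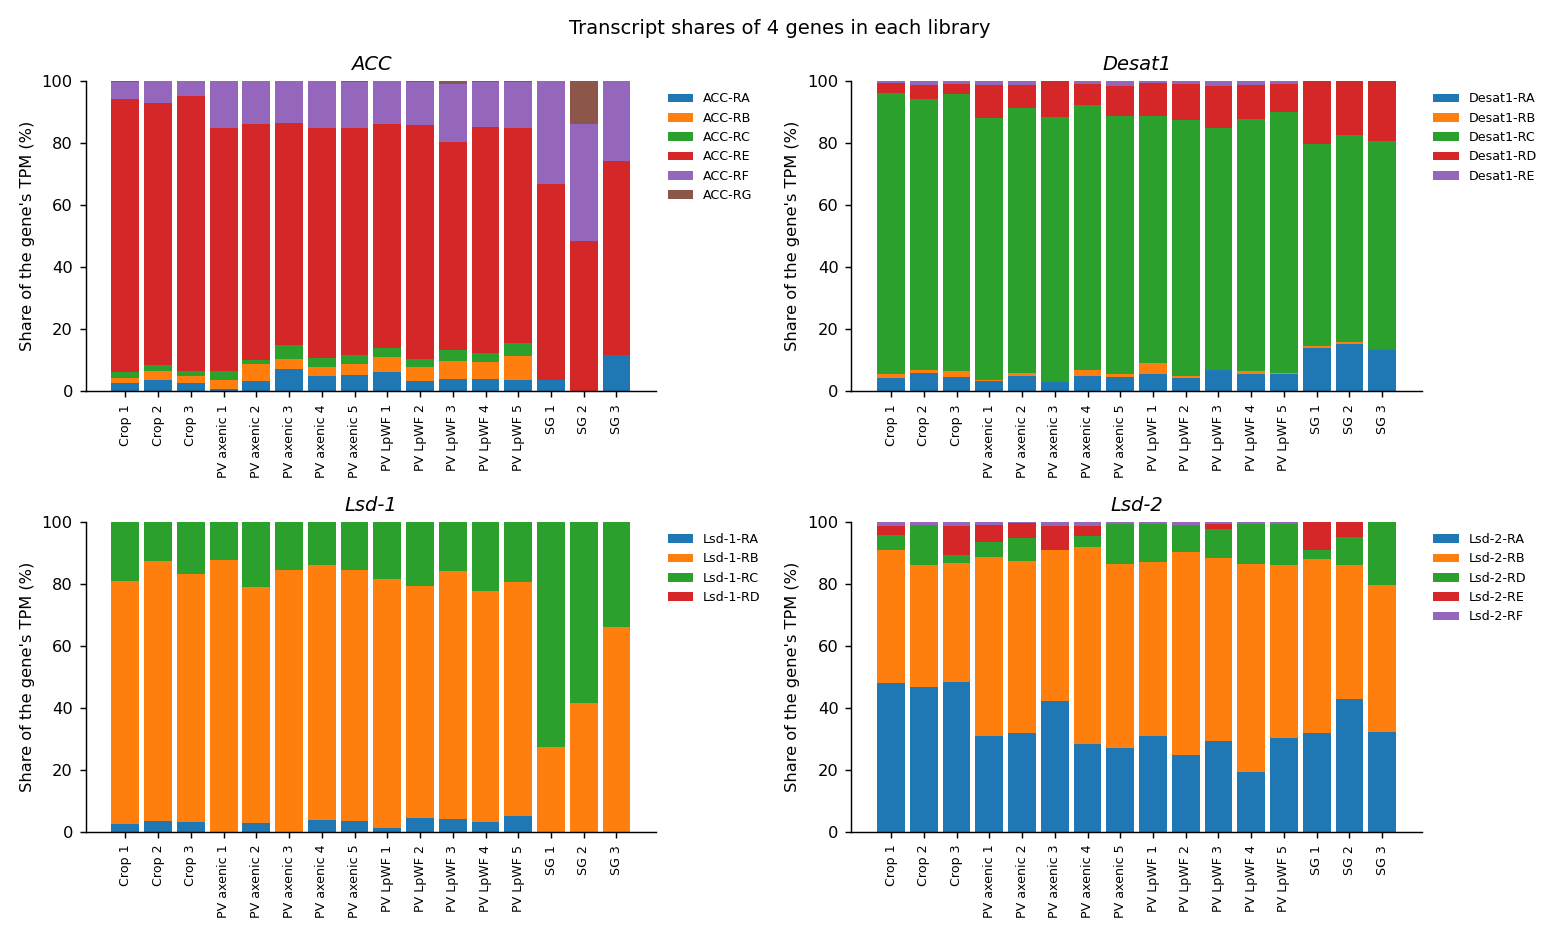
Share (%) of each annotated transcript in the TPM of ACC, Desat1, Lsd-1 and Lsd-2, with 1 stacked bar per library in the order Crop, PV axenic, PV LpWF and SG. The share of ACC-RF is smallest in crop (4.63 to 7.05%) and largest in SG (25.7 to 37.7%), and Lsd-2-RA exceeds Lsd-2-RB in all 3 crop libraries and in none of the 10 PV libraries.

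The other genes of fat metabolism were taken from lists by function, described by counts and medians. Over all genes tested in crop against PV LpWF 51.6% were called, 26.1% higher in crop and 25.5% lower. The counts of each list below are best read against these shares. In crop against PV LpWF the list of acyl-CoA and NADPH supply had 5 of 12 tested genes higher, 3 lower and 4 that did not pass, with a median of -0.15. The fatty acid binding protein gene fabp had means of 2132 coding TPM in crop and 296 in PV LpWF, and rose by 1.85 ± 0.18 (log2, SE; edgeR adjusted p = 2.41e-05). Idh, a source of NADPH, rose by 1.06 ± 0.076. Acbp2, an acyl-CoA binding protein gene, was the most abundant, with means of 5326 and 4557 coding TPM, and fell on the TMM scale by 0.77 ± 0.15. Fatp2, from the family of fatty acid transport proteins, fell by 2.50 ± 0.25 (log2, SE).

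Of 16 genes of elongation and desaturation that were tested in both comparisons 9 were higher in crop, 5 lower and 2 did not pass, with a median of 0.45. A further gene, sit, was at 0 in all 5 PV LpWF libraries and passed the filter only through the crop, and is left out of these counts. The elongase gene Baldspot had means of 2597 coding TPM in crop and 446 in PV LpWF, a rise of 1.56 ± 0.15 (log2, SE; edgeR adjusted p = 2.59e-05). CG31522, of the same family, rose by 0.70 ± 0.19 from a PV LpWF mean of 760, and CG31523 had -0.32 ± 0.15 with an edgeR adjusted p of 0.104. sit was at 3.12, 0.365 and 2.16 coding TPM in crop. Apart from sit, the genes that rose the most were Elovl7, by 2.74 ± 0.16, and bond, by 2.66 ± 0.18 (log2, SE). Those that fell the most were CG9747, by 3.60 ± 0.62, and Elo68alpha, by 2.95 ± 0.88 (log2, SE).

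Of 10 genes of triglyceride synthesis tested in both comparisons 6 were higher in crop, 2 lower and 2 did not pass, with a median of 0.32. Dgat2, which passed the filter only with the crop libraries, is left out. mino, a glycerol-3-phosphate acyltransferase gene, had a mean of 171 coding TPM in crop and 16.7 in PV LpWF, a rise of 2.41 ± 0.096 (log2, SE; edgeR adjusted p = 1.23e-07) that is larger than the fitted value of any of the 10 genes that rose. The glycerol kinase gene Gk2 rose by 1.73 ± 0.28 and Gk1 by 0.86 ± 0.066. Gpdh1 rose by 0.39 ± 0.092 and Gpat4 by 0.25 ± 0.080, while the acyltransferase gene Agpat3 fell by 1.25 ± 0.12 (log2, SE).

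All 7 genes of the lipid droplet list were called, 4 higher and 3 lower, against 51.6% of all genes tested. Their median was 0.41. Jabba, which binds histones at droplets, had means of 116 coding TPM in crop and 14.4 in PV LpWF and rose by 2.05 ± 0.17 (log2, SE; edgeR adjusted p = 6.96e-06). Ldsdh1 rose by 1.28 ± 0.17, Seipin by 0.81 ± 0.14 and Fitm by 0.41 ± 0.078. sturkopf fell by 0.71 ± 0.084 and Pcyt1, which acts in phosphatidylcholine synthesis, fell by 0.46 ± 0.11 (log2, SE).

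Of 10 lipases tested in both comparisons 3 were higher in crop, 1 lower and 6 did not pass, with a median of -0.0066. Lip4 had means of 74.2 coding TPM in crop and 3.86 in PV LpWF and rose by 3.30 ± 0.097 (log2, SE; edgeR adjusted p = 3.65e-08). Hsl, the hormone-sensitive lipase that acts beside bmm at the droplet, had means of 165 and 54.8 and rose by 0.61 ± 0.075. CG31871 had a mean of 3.73 coding TPM in crop and was at 0 in 4 of 5 PV LpWF libraries, and is left out of these counts because it passed the filter only through the crop. CG6283 fell by 3.40 ± 1.17 with an edgeR adjusted p of 0.0455. CG6295 was uneven, at 6.82, 32.2 and 315 coding TPM in crop and 241, 382, 336, 671 and 32.5 in PV LpWF, and CG17292 had -0.099 ± 0.16 (log2, SE), and neither passed.

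Of 16 genes of fatty acid oxidation 7 were higher in crop, 1 lower and 8 did not pass, with a median of 0.42. The subunits of the mitochondrial trifunctional protein both rose, Mtpalpha by 1.07 ± 0.076 and Mtpbeta by 1.03 ± 0.070, and so did the acyl-CoA dehydrogenase genes Acadvl, by 1.21 ± 0.12, and CG4860, by 1.38 ± 0.20 (log2, SE). yip2, a thiolase gene, rose by 0.64 ± 0.10, and Mcad had 0.59 ± 0.23 with an edgeR adjusted p of 0.0650. Of 13 regulators 2 were higher, 3 lower and 8 did not pass, with a median of 0.022. SREBP, the factor that drives fatty acid synthesis genes in flies, rose by 0.26 ± 0.084 (log2, SE; edgeR adjusted p = 0.0292), and Hnf4, a nuclear receptor, by 0.91 ± 0.10. sug, a sugar-responsive transcription factor, fell by 2.63 ± 0.32 and Mondo by 0.53 ± 0.081, and foxo had 0.18 ± 0.12 with an edgeR adjusted p of 0.237.

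**Figure D5:**
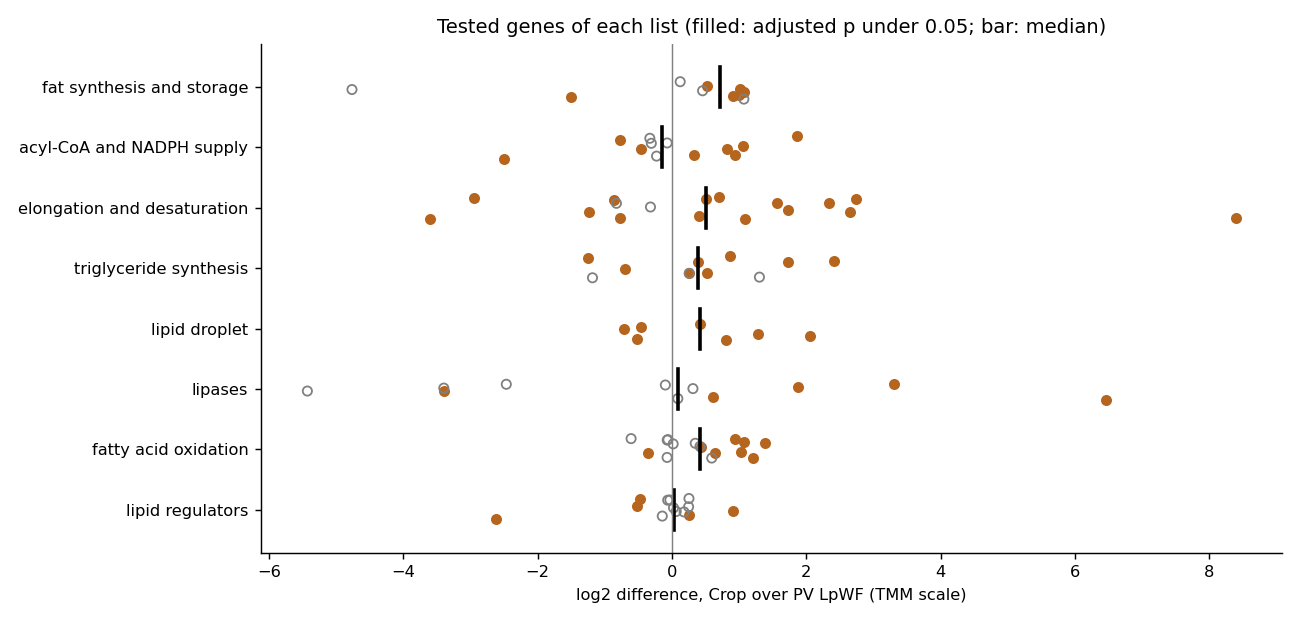
Log2 differences on the TMM scale, Crop over PV LpWF, for each tested gene of the 10 fat synthesis and storage genes and of 7 further lists, with filled points at an adjusted p under 0.05 and bars at the medians. The median is 0.71 for the 10 genes, 0.50 for elongation and desaturation with sit counted and 0.022 for lipid regulators. All 7 lipid droplet genes are filled, where 51.6% of all genes tested passed. The rightmost point is sit, at 0 in every PV LpWF library, whose fitted value is no measure of size.

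In PV LpWF against PV axenic edgeR called no gene of these 7 lists. At an unadjusted p under 0.05, which 9.70% of all genes tested reached, there were 2 of 12 genes of acyl-CoA and NADPH supply, 7 of 16 of elongation and desaturation, 2 of 10 of triglyceride synthesis, 1 of 7 of the lipid droplet, 2 of 10 lipases, 3 of 16 of fatty acid oxidation and 2 of 13 regulators. DESeq2 called Hacd1 and Fitm, both lower in PV LpWF, which are named here because DESeq2 called them. Fitm had -0.28 in edgeR with an adjusted p of 0.321. The median log2 difference of elongation and desaturation was -0.22, against 0.0046 over all genes tested.

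The genes most like each of the 10 across the 13 crop and PV libraries were found by Pearson's r of log2(coding TPM + 1) among 5290 protein-coding genes, the 10 left out. These libraries fall into crop and PV, so r over all 13 mostly follows that contrast, and the range of r over the 10 PV libraries is given beside it for each gene, both as descriptions. They also share the scaling of each library. FASN1 was most like obst-E, P5CDh1 and Pex11ab, each at 0.996, and at 0.810 to 0.865 within PVs. ACC was most like P5CDh1 as well, at 0.998, followed by CG10353 and GstT3, each at 0.995, and these had 0.732 to 0.927 within PVs. ATPCL was most like Msr-110, Sc2 and Ptp10D, each at 0.993, with 0.874 to 0.905 within PVs. Desat1 was most like Tsp42Ee, CG5112 and Pis, each at 0.995, with 0.848 to 0.878 within PVs. mdy was most like CG9485, at 0.990, and PRL-1 and BNIP3, both at 0.989, with 0.631 to 0.883 within PVs. Lsd-1 was most like CG33523 and blot, at 0.992, and CG33521, at 0.991, with 0.833 to 0.890 within PVs. Lsd-2 was most like CG2841, g and drpr, at 0.988, 0.987 and 0.980, with 0.857 to 0.914 within PVs. For bmm they were Pdk1, CG5853 and Prestin, at 0.978, 0.970 and 0.969, with 0.815 to 0.982 within PVs. FASN2 reached only 0.904, with aspr, followed by CG15155 and VhaAC45, with 0.877 to 0.939 within PVs. mag was most like CG9682, Jon99Fi and Jon65Aii, at 0.988, 0.985 and 0.983, with 0.989 to 0.995 within PVs, and each of these was highest in PV LpWF replicate 4, at 175 coding TPM for CG9682 against at most 1.54 in any other crop or PV library.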

How the data were processed

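Bulk RNA-seq of 16 pooled tissue libraries was used, 5 PV axenic, 5 PV LpWF, 3 crop and 3 SG. The authors processed the reads with a workflow ending in Salmon on Ensembl release 98 and deposited 1 table per library. It holds a row per transcript, with estimated counts that the authors left unnormalized and TPM that the authors' tool computed over coding and noncoding transcripts together. The authors used DESeq2 for the PV comparison.

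Both measures were added up over the 33704 transcripts gene by gene, by the annotation of Ensembl release 115, which gives the coordinates (BDGP6). The 271 transcripts with no gene there held 0.128 to 0.257% of reads and were left out. Coding TPM is TPM rescaled to 1000000 over 13619 protein-coding genes. Counts were rounded and tested with edgeR 4.0.16 (R 4.3.3) by TMM, filterByExpr, robust quasi-likelihood F tests and Benjamini-Hochberg adjustment over all genes, at 0.05. The test was tested on simulated data. Standard errors come from the same fits. The members and lists were chosen with earlier results of these data known. Named list genes are the 3 called genes with the largest difference in crop against PV LpWF and the 3 with the highest mean coding TPM over 16 libraries. Elovl7 and bond are named as well, as the largest rises of their list once sit was left out. Likeness was sought among genes with a mean of at least 10 coding TPM. The symbols Kar, CG2781, CG1942, CG6113, CG17116, CG7461, CG12262 and dec-1 matched no gene. Within each group no library was a copy of another, since counts of every pair differed by at least 21.8 times the counting variance per gene. Replicates were checked for pairing, as given with the alternatives. Alternatives were the size factors of DESeq2 1.42.0, other count filters, protein-coding genes only, dispersions without the robust option, DESeq2, a replicate block, terms for ribosomal RNA, gene-length offsets, all 10 PV libraries, other level scales and leaving out each library. Precision is limited by the number of libraries, and limits on counts of 0 cover counting error only. Python 3.11.15, with pandas 2.3.3, numpy 2.4.6 and matplotlib 3.10.9, was used for levels and figures.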

Additional observations from a re-analysis of the deposited data

Results flagged for a closer look

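The 10 genes were examined in the PV groups of 5 libraries, which is 20 sets of values, and chance alone is expected to mark about 1 in 20 of them. In 3 sets a library stood far from the others of its group. For mag, PV LpWF replicate 4 held 35.7 coding TPM, against 0 to 0.581 in the other PV LpWF libraries. For bmm the same library held 26.2 coding TPM, against 9.35 to 13.9. For FASN2, PV LpWF replicate 5 held 0.200 coding TPM, against 0.499 to 0.608, on 28 estimated reads.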

How the results depend on the processing

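In crop against PV LpWF the number of members called was 6 to 8 under all alternatives, and FASN1, ACC, Desat1 and Lsd-1 stayed called and higher, and FASN2 called and lower, in each of them. With DESeq2, without the robust option, with all 10 PV libraries and without crop replicate 1 or PV LpWF replicate 4, bmm was called as well, and Lsd-2 was called with all 10 PV libraries, with the replicate block and without PV LpWF replicate 4. Both were also called with only the libraries of at most 25% ribosomal RNA, an alternative chosen after seeing the data. mag turned to 0.32 with the replicate block and 0.036 with those libraries, and ran from -5.10 to 0.29 when single libraries were left out. In PV LpWF against PV axenic no member was called under any alternative. Genes called over all, 1 in the test reported, numbered 52 with DESeq2, 34 with a replicate block, 266 with DESeq2 and the block, 14 with a term for ribosomal RNA over 25%, 0 with only the libraries over 25%, and 1 to 10 when single libraries were left out, the 10 without PV LpWF replicate 5. Small differences changed sign. bmm was -0.060 with the replicate block, -0.064 with the block in DESeq2, -0.36 with at most 25% ribosomal RNA, and -0.31 to 0.16 over single libraries left out. Lsd-2 was 0.022 with only libraries over 25%. Over single libraries left out Desat1 ran from -0.064 to 0.066, FASN2 from -0.050 to 0.24 and mag from -0.20 to 5.34.

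Nothing states that equal replicate numbers pair libraries. The correlations did not settle this for the PV groups, where all same-numbered values were positive. Same-numbered PV libraries had r of 0.0764, 0.115, 0.113, 0.0200 and 0.442 between their deviations from the group means, and same-numbered crop and PV LpWF libraries 0.0257, -0.0586 and -0.103. Not every library correlated best with its own number. PV axenic replicate 3 had 0.229 with PV LpWF replicate 2, and PV axenic replicate 4 had 0.434 with PV LpWF replicate 5. In crop against PV LpWF the block gave 4265 calls over all genes in place of 5010, ended the call of mdy, at 0.46 with an edgeR adjusted p of 0.0879, and changed no other call of a member but that of Lsd-2.

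The median log2 ratio of crop over PV LpWF among the 8 members with means of at least 1 coding TPM in both depended on scale, at 1.95 in coding TPM, 1.30 without the 10 highest genes of any group and 0.90 in TMM CPM over 16 libraries. For crop over SG, with 6 such members, it was 6.87, 3.85 and 2.71, and 5.86 in TPM as deposited. The cause was not tested. Depth limits FASN2 and mag, which had 0 to 145 reads apart from mag in PV LpWF replicate 4.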
